A study of Drosophila melanogaster with 3 samples.

Results

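The 8 Hox genes of *Drosophila melanogaster* were examined for binding of CG12104, a protein uncharacterized in RefSeq. It is listed here with the HMG-box (high mobility group) DNA-binding proteins outside the Sox family. The genes were chosen by symbol in the Ensembl BDGP6 annotation, where all 8 were found on 3R, among 13945 protein-coding genes on the chromosomes with peaks. They lie in 2 clusters, the Antennapedia complex (*lab*, *pb*, *Dfd*, *Scr* and *Antp*, 3R 6661427 to 6999228) and the bithorax complex (*Ubx*, *abd-A* and *Abd-B*, 3R 16656623 to 16972236). Each complex was taken from the outermost end of its first Hox gene to that of its last, 653 kb in all, with the intervals between the genes included. The stricter peak set of the study had 19 summits within these bounds and 4041 elsewhere. Of the 19, 11 lay in the Antennapedia and 8 in the bithorax complex.

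Binding was measured by ChIP-seq in 3 biological replicates. Each was whole Drosophila embryos of mixed sex, collected from 0 to 24 h after laying, from 1 transgenic line whose CG12104 carries GFP at the C-terminus. Sonication gave chromatin fragments of 200 to 800 bp, from which an anti-GFP antibody recovered the fusion protein. There is 1 group, so what is compared here is the Hox complexes with the rest of the genome, gene with gene, and replicate with replicate. Whole embryos of all stages hold cells in which each Hox gene is on and cells in which it is off, and binding in few cells cannot be told apart from weak binding in many.

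Hox genes encode homeodomain transcription factors that give the segments of the body their identity along the head-to-tail axis. In both complexes the order of the genes on the chromosome follows the order of the body regions in which they act. Their transcription is set by long stretches of regulatory DNA in introns and between genes, kept on or off through development by trithorax and Polycomb group proteins and partitioned by insulators.

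Of the kinds of list used, the set that the authors kept at an irreproducible discovery rate (IDR) threshold is the strictest. The pooled list holds 26959 candidate regions and each replicate's list 30000. The candidate lists are permissive: the highest q value was 0.960 in the pooled list, against 0.0152 in the IDR set. Each region has a signal value on the scale of its own list, so regions are ranked within a list (rank 1 is the highest signal). The highest regions of a replicate, as many as the IDR set holds, are called its top regions. No list gives read counts, so depth is unknown.

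The 201 bases about the summits of the peaks on which the results turn were read from the plus strand of the Release 6 assembly (dm6). They are the highest peak of the bithorax complex, the highest of the Antennapedia complex, the strongest peaks within *Abd-B* and *Antp*, and the 1 peak at a Hox start site. Capitals mark ACAAT or its reverse complement ATTGT, the core bound by the Sox kind of HMG-box protein. It is a match of letters and not a measured site.
Between Ubx and abd-A, chr3R:16798791-16798991: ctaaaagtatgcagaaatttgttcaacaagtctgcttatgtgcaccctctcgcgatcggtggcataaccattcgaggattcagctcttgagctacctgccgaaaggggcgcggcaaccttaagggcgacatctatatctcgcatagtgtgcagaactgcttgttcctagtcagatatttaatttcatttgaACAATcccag
Ama promoter, chr3R:6762995-6763195: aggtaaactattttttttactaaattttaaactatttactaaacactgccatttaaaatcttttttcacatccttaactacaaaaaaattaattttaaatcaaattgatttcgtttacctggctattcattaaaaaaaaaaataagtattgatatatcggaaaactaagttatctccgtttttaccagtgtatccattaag
Abd-B intron, downstream peak, chr3R:16958198-16958398: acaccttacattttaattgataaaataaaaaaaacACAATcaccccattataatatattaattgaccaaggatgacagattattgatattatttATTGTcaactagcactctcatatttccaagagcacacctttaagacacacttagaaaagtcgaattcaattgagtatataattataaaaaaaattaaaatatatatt
Antp intron, chr3R:6912487-6912687: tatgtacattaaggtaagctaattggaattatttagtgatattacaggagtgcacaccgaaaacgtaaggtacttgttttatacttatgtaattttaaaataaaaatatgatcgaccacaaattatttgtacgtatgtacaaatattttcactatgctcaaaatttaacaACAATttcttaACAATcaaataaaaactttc
Abd-B intron, upstream peak, chr3R:16969798-16969998: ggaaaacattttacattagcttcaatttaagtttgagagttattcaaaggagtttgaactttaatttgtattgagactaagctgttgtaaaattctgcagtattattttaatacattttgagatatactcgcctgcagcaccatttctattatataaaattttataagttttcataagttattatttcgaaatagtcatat
Dfd promoter, chr3R:6791268-6791468: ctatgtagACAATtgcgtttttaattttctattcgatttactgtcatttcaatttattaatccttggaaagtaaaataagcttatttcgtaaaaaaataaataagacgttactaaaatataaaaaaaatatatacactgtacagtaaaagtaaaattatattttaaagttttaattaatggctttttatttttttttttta

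Of these windows, those in *Abd-B* downstream and *Antp* held 2 matches each, those between *Ubx* and *abd-A* and at *Dfd* held 1, and the remaining windows held 0. Over the whole set, 12 of the 19 Hox complex windows held the core (63.2%, 95% Wilson interval 41.0 to 80.9), as did 51.5% of the other 4041 IDR windows. The interval spans the share of the other peaks, and with 50 bp to each side of the summit the order turned, to 21.1% in the Hox complexes against 31.1% elsewhere. Median GC content was 34.3% in the Hox complexes and 33.8% elsewhere.

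In the whole IDR set the complexes held about as many peaks for their length as the rest of the arm, but fewer above its median rank. There were 29.1 IDR peaks per Mb in the Hox complexes, against 30.1 per Mb in the rest of 3R. Among the peaks above the median rank of the set the densities were 7.65 per Mb in the complexes and 15.3 per Mb in the rest of 3R. Peaks matched by top regions of replicates 1 and 2, with replicate 3 left out, numbered 11, or 16.8 per Mb in the complexes, against 23.0 per Mb in the rest of 3R. With replicate 2 left out the densities were 18.4 and 22.0 per Mb. With replicate 1 left out they were nearly equal, 23.0 and 23.5 per Mb. By complex, the density was 32.6 per Mb in the Antennapedia and 25.3 per Mb in the bithorax complex. The peaks were of moderate strength. Their median pooled signal was 141 (lowest 107, highest 417), against 167 for all other IDR peaks (lowest 106, highest 2158). Only 5 of the 19, or 26.3%, stood above the median rank of the IDR set, against 50.1% of the other peaks. Among the other peaks over 500 bp from a protein-coding start site that share was 44.4%, and the median pooled signal 157. Neighbouring peaks overlapped in 2 places, once in *Antp* by 240 bp and once in *Abd-B* by 249 bp, so the 19 peaks make up 17 separate stretches. The overlapping region of highest signal stood for each peak, so in each replicate the members of a pair were matched by the same region. Some replicate lists held a further region there, such as the one of rank 6228 in replicate 2 in *Abd-B*. The replicate ranks of the weaker member are therefore those of its neighbour.

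**Figure D1:**
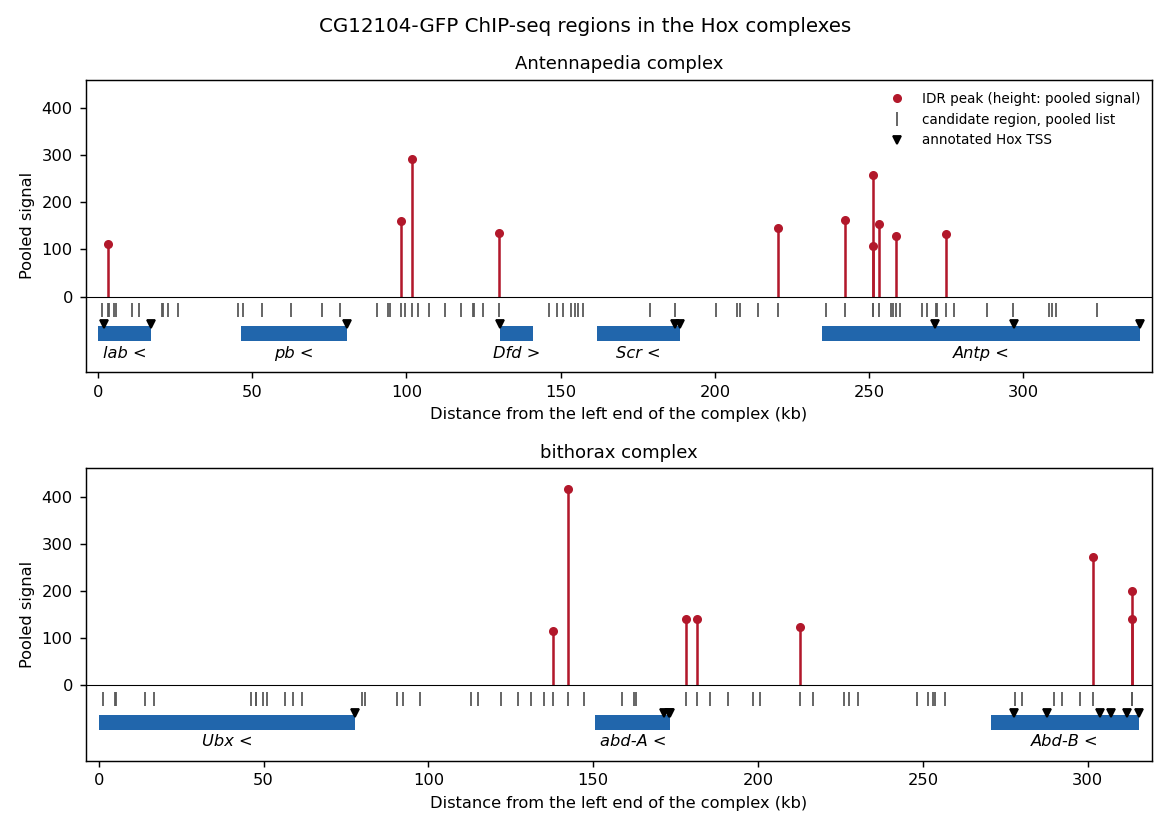
IDR peaks (red, height: pooled signal, no unit) and candidate regions of the pooled list (grey ticks) along the 2 Hox complexes, by distance in kb from the left end of each complex; blue bars are Hox genes with their direction and black triangles their annotated start sites. *Antp* holds 6 IDR peaks, *Abd-B* 3 and *lab* 1, and 9 lie between genes. The spans of *pb*, *Scr*, *Ubx* and *abd-A* hold candidates but no IDR peak.

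Few Hox genes had a peak at a start site, and the same held for protein-coding genes as a whole. Only *Dfd* (FBgn0000439, 3R 6791836 to 6802428), which specifies the mandibular and maxillary segments of the head, had a peak of the IDR set whose summit fell within 500 bp of a transcription start site (TSS): 1 of 8 genes, or 12.5%, against 18.7% of all protein-coding genes. That peak (3R 6791143 to 6791592) had its summit at -468 bp from the start site, near the edge of the window. Its pooled signal was 134, and the region that overlapped it ranked 5203 in replicate 1, 2559 in replicate 2 and 2742 in replicate 3. Replicate 1 therefore placed it below its top regions. With a window of 200 bp no Hox gene had a peak, against 12.2% of all protein-coding genes.

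In the permissive pooled list 4 of 8 Hox genes (*Dfd*, *Scr*, *Antp* and *Abd-B*) had a candidate summit within 500 bp of a TSS, a share of 50%, against 46.2% of all protein-coding genes. Outside *Dfd* these candidates were weak. The one at *Scr*, which acts in the labial and first thoracic segments, lay 6 bp from a start site but ranked only 11094 in the pooled list. It ranked 9760 and 25970 in replicates 1 and 2, and replicate 3 had no region overlapping it. At *Antp* the best such candidate ranked 12963 and at *Abd-B* 23925. The start sites of *lab*, *pb*, *Ubx* and *abd-A* had none in the pooled list. *Ubx* had 1 such region, in replicate 1, at rank 17342. The distance from a Hox start site to the nearest IDR summit was 468 bp at *Dfd*, 1312 bp at *lab*, 1324 bp at *Abd-B*, 3479 bp at *Antp* and 4799 bp at *abd-A*. It was 17562 bp at *pb*, 31784 bp at *Scr* and 60104 bp at *Ubx*. The peak nearest to *pb* is that of *bcd*.

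The peaks lay further from start sites than elsewhere in the genome. The median distance from a summit to the nearest protein-coding TSS was 6219 bp in the Hox complexes (159 to 29412 bp) and 490 bp for all other IDR peaks. More than 5 kb away lay 10 of the 19 (52.6%), against 16.3% of the others. The promoter class, within 500 bp of a TSS, held 3 of 19 (15.8%, Wilson interval 5.52 to 37.6), against 50.4% of the other peaks. Introns of protein-coding genes held 13 of 19 (68.4%, interval 46.0 to 84.6), against 34.5%. A peak classed as promoter cannot count as intronic, so a lower promoter share leaves room for a higher intron share. The part of this in the intron share was not tested. Coding exons outside promoters held 0 of 19, which allows up to 16.8% by the interval, against 0.198% of the other peaks. Promoter windows covered 5.38% of the bases of the complexes, and the part of this sparseness in the result was not tested. These intervals cover counting error over peaks only, and they count the overlapping peaks in *Antp* and *Abd-B*, all intronic, as separate.

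**Figure D2:**
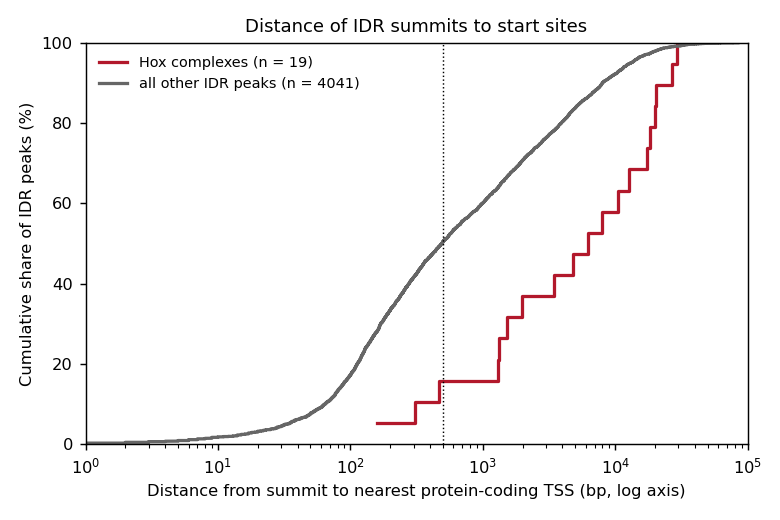
Cumulative share of IDR peaks (%) by distance from the summit to the nearest protein-coding start site (bp, log axis), for the Hox complexes (red, n = 19) and all other IDR peaks (grey, n = 4041); the dotted line marks 500 bp. The red curve lies to the right, with a median of 6219 bp against 490 bp.

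Among the Hox gene bodies only *lab*, *Antp* and *Abd-B* held an IDR summit: 3 of 8 genes, or 37.5%, against 10.5% of all protein-coding genes. Most Hox genes are long. Of the 6 Hox genes of 20 kb or more, 2 held a peak (33.3%), against 46.0% of all 1013 protein-coding genes of that length.

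*Antp* (FBgn0260642, 3R 6896253 to 6999228), which gives the thoracic segments their identity, held the most, 6 peaks over 103 kb. At least 6 IDR summits were found in 3.06% of the protein-coding genes of 20 kb or more, overlapping peaks counted separately. Most of those genes are shorter than *Antp*: 82 protein-coding genes are at least as long. The share with 6 or more was not computed among these 82, of which 37 (45.1%) held none. All 6 peaks in *Antp* were intronic. The same stretch lies in introns of the overlapping gene CG46458, so the peaks cannot be given to 1 of these 2 genes. The gene has 3 annotated start sites. Of the 6 peaks, 5 lay downstream of all of them, between 12609 and 29412 bp past the nearest, and 1 lay 3479 bp upstream of the start site closest to the 3' end. The strongest (3R 6912362 to 6912811) had a pooled signal of 259 and ranked 1027, 675 and 1281 in replicates 1, 2 and 3. All replicates placed it among their top regions. The weakest of the other separate stretches, at 3R 6920006 to 6920455, had a pooled signal of 129 and ranked 9775, 1493 and 4646. Only replicate 2 had it among its top regions. The part of *Antp* from 6936319 to the 5' end had no IDR peak, and the gap ran on to the next summit on the arm, 131 kb away.

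The top regions of replicates 1, 2 and 3 numbered 3, 6 and 4 in *Antp*.

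*Abd-B* (FBgn0000015, 3R 16927212 to 16972236), the Hox gene of the posterior abdomen and genitalia, held 3 peaks over 45.0 kb. Of the protein-coding genes of 20 kb or more, 15.4% held at least 3, and 374 are at least as long as *Abd-B*. The downstream peak of *Abd-B* (3R 16958073 to 16958522) had a pooled signal of 273 and ranked 979, 840 and 1027 in the replicates, a narrow range. It lay 1983 bp downstream of 1 of the gene's 6 start sites. The overlapping pair lay upstream of it in the gene, with summits at -1324 and -1525 bp from another start site and pooled signals of 201 and 140.5. The region matching both ranked 1014, 2202 and 1538. All 3 replicates had these stretches among their top regions. *lab* (FBgn0002522, 3R 6661427 to 6678590), which acts in the intercalary segment of the head and in the midgut, held 1 peak of low signal (112, 3R 6664541 to 6664990), 1312 bp upstream of its internal start site. It ranked 4133, 2646 and 6292, and only replicate 2 had it among its top regions.

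The remaining gene bodies were empty in the IDR set. *Ubx* (FBgn0003944, 3R 16656623 to 16734426), which shapes the third thoracic segment and its halteres, is 77.8 kb long and held no peak, as did 63 of the 141 protein-coding genes at least as long (44.7%). Its best regions ranked only 6729, 6630 and 6126 in the replicates. It did hold 18, 18 and 19 candidate regions, or 231, 231 and 244 per Mb, near the level of the rest of 3R. The IDR-free stretch around *Ubx* ran for 139 kb, and 4.46% of the 964 gaps between neighbouring summits on 3R were as long. The stretch contains the whole of an empty long gene, so it was bound to be among the longer gaps (median 10.6 kb). The best regions of *abd-A* (FBgn0000014, 3R 16807214 to 16830049), a gene of the abdominal segments, ranked 12865, 12530 and 8578. Those of *Scr* (FBgn0003339, 3R 6823120 to 6849981) ranked 9760, 10876 and 22795. Those of *pb* (FBgn0051481, 3R 6707800 to 6742063), needed for the adult mouthparts, ranked 7411, 4395 and 10966. The body of *Dfd* held 1 candidate in replicate 1, at rank 29924, and none in replicates 2 and 3. No replicate had a top region inside *pb*, *Dfd*, *Scr*, *Ubx* or *abd-A*. A body without an IDR peak is common at these lengths. It was found in 52.0% of the protein-coding genes at least as long as *pb*, and in 59.9% for *Dfd*. For *Scr* the share was 53.2% and for *abd-A* 53.1%.

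Between the genes lay 9 of the 19 peaks. The strongest of both complexes was in the interval between *Ubx* and *abd-A*, at 3R 16798794 to 16798997, the first sequence above. It had a pooled signal of 417, 2.50 times the median of the IDR set, and ranked 338 in that set. In the replicates it ranked 639, 319 and 228, the highest of all Hox complex peaks in each. The peak overlaps no annotated gene. Its summit lay 29214 bp downstream of the nearest *abd-A* start site and 1709 bp upstream of the noncoding RNA gene lncRNA:CR45750. A weaker peak lay 4.36 kb away and ranked 5867, 2864 and 5409. On the other side of *abd-A*, 3 peaks lay in introns of lncRNA:iab8 and MSAmiP, whose spans cover the regulatory region between *abd-A* and *Abd-B*. Their pooled signals were 139.7, 141 and 123, and the nearest lay 4799 bp upstream of an *abd-A* start site.

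In the Antennapedia complex the interval between *pb* and *Dfd* held 3 peaks, that of *Dfd* and those of its non-Hox neighbours. The higher lay at *Ama*, which encodes a cell adhesion protein of the immunoglobulin family, 309 bp upstream of a start site (3R 6762870 to 6763319, pooled signal 291). It ranked 1260, 531 and 1104 in the replicates. The other lay at *bcd*, the gene of the maternal anterior determinant Bicoid, 159 bp upstream of its start site (159.7), and ranked 2581, 2025 and 2436. Both were top regions of all 3 replicates. The interval between *Scr* and *Antp*, home of the pair-rule gene *ftz*, held 1 peak (146), in an intron of lncRNA:CR44931 and 17441 bp downstream of the *ftz* start site. The intervals from *lab* to *pb*, where cuticle protein genes lie, and from *Dfd* to *Scr*, where mir-10 lies, held none. Of the 11 other genes of the complexes on a fixed list, *Ama*, *bcd* and lncRNA:iab8 had an IDR summit in the span or within 500 bp of a start site. Of the 5 protein-coding genes on that list this is 2, against 23.2% of all protein-coding genes under the same rule. *zen*, *zen2*, *ftz*, mir-10, mir-iab-4, mir-iab-8, lncRNA:bxd and lncRNA:iab4 had none.

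When each peak was given to the nearest protein-coding TSS within 5 kb, 5 of 8 Hox genes (*lab*, *Dfd*, *Antp*, *abd-A* and *Abd-B*) received one, 62.5%, against 18.5% of all protein-coding genes. The length of sequence that lies nearest each gene differs, and its part in this share was not tested.

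The replicates ranked the Hox peaks differently. All 19 were matched by a region in every replicate, as were nearly all other IDR peaks. Of those 4041, only 12, 21 and 12 were unmatched in replicates 1, 2 and 3. Top regions matched 11 of the 19 in all 3 replicates (57.9%), against 66.4% of the other IDR peaks. Both members of each overlapping pair are among the 11, through a shared region in each replicate. The shares and median ranks by replicate count these pairs in the same way. By replicate, 12, 18 and 16 of 19 were matched by a top region in replicates 1, 2 and 3, that is 63.2%, 94.7% and 84.2%, against 83.6%, 89.0% and 83.4% of the other peaks. Their median rank was 3416, 2323 and 1826, against 1918, 1842 and 1883 for the others. Replicate 1 thus gave the Hox peaks the lowest median rank. The other IDR peaks that lie over 500 bp from a TSS had median ranks of 2488, 1984 and 1909.5, and 62.9% of them were among the top regions of all 3 replicates. The ratio of the median signal of Hox complex peaks to that of the other IDR peaks was 0.723, 0.865 and 1.02 in replicates 1, 2 and 3. Its mean was 0.870 ± 0.150 (SD, n = 3), and the replicates lay on both sides of 1 (exact two-sided sign-flip permutation p = 0.5; 3 replicates cannot give a p below 0.25). Between peaks over 500 bp from a TSS in both sets the ratio was 0.824, 0.890 and 1.09, a mean of 0.934 ± 0.138 (SD, n = 3).

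**Figure D3:**
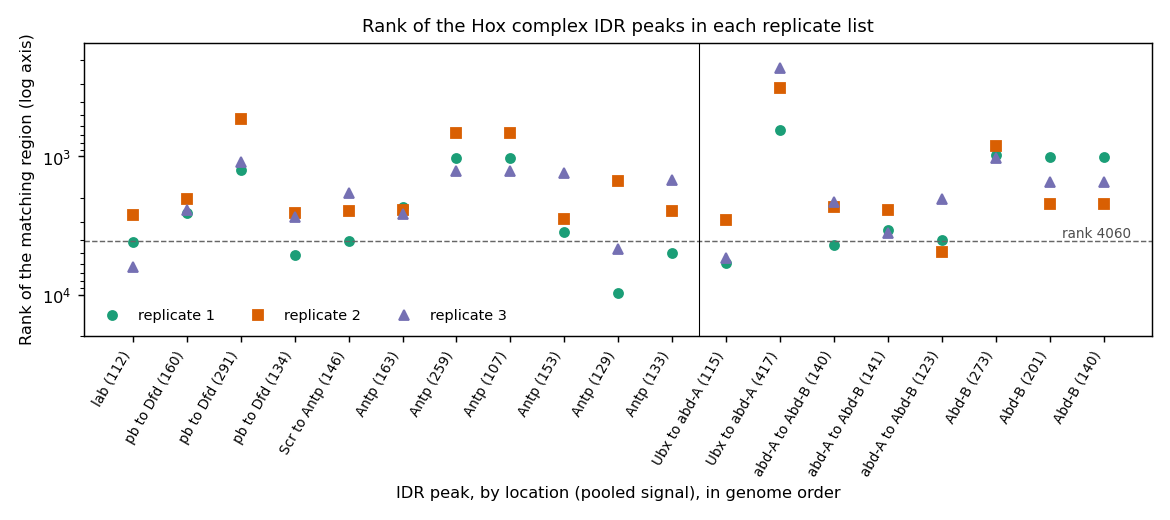
Rank of the region that matches each of the 19 Hox complex peaks in replicates 1, 2 and 3 (log axis, high signal at the top), in genome order with the location and pooled signal of each peak; the vertical line parts the Antennapedia (left) from the bithorax complex. The peak between *Ubx* and *abd-A* is the highest in every replicate, and most points under the dashed line, the lowest rank of a top region, are of replicate 1.

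Candidate regions were spread over both complexes at about the density of the arm, below it in the pooled list and above it in each replicate list. The pooled list had 184 per Mb in the Hox complexes against 199 per Mb in the rest of 3R, a ratio of 0.922. There were 149, 162 and 157 in the Hox complexes in replicates 1, 2 and 3, or 228, 248 and 240.3 per Mb, against 223, 226 and 220.5 per Mb in the rest of 3R. The ratio was 1.02, 1.10 and 1.09, a mean of 1.07 ± 0.0418 (SD, n = 3; exact two-sided sign-flip permutation p = 0.25, the smallest 3 replicates can give). With candidates of q at most 0.05 alone the direction turned, and the ratios were 0.720, 0.917 and 0.946, a mean of 0.861 ± 0.123 (SD, n = 3; exact permutation p = 0.25). By gene, *lab* had 7.67 ± 1.53 candidates (SD, n = 3), *pb* 5.33 ± 1.53, *Scr* 4.33 ± 2.08 and *Antp* 29.0 ± 3.46. *Ubx* had 18.3 ± 0.577, *abd-A* 5.33 ± 0.577 and *Abd-B* 11 ± 1.73 (SD, n = 3). Per length, *lab* was the densest Hox gene in each replicate (466, 524 and 349.6 per Mb) and *Dfd* the sparsest.

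**Figure D4:**
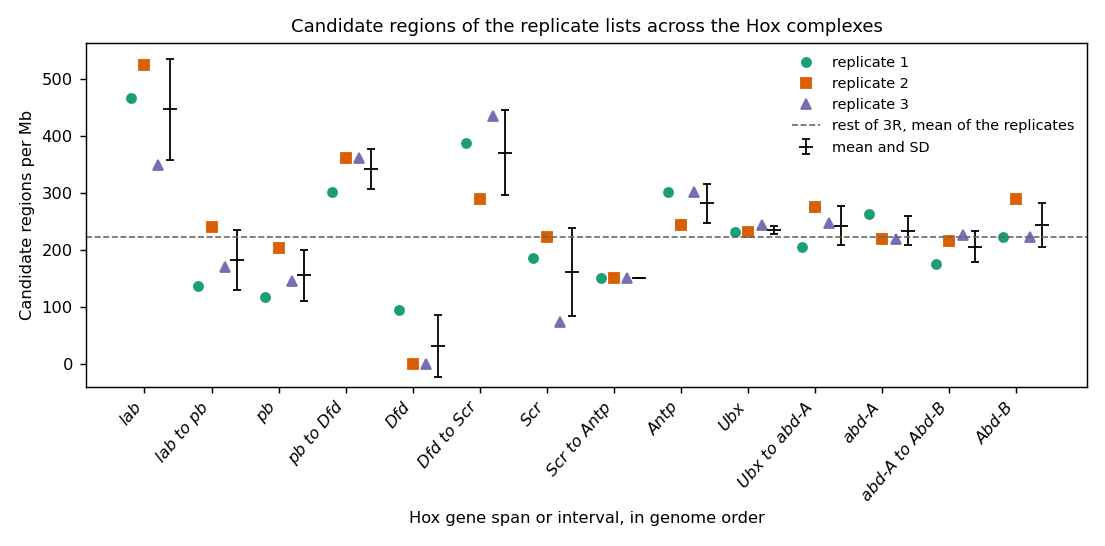
Candidate regions per Mb in each replicate list for the Hox genes and the intervals between them, in genome order, with mean and SD over 3 replicates; the dashed line is the mean density of the rest of 3R. *lab* and the interval from *Dfd* to *Scr* stand highest, while *Ubx*, *abd-A* and *Abd-B* lie near the line.

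Below the lowest signal of the IDR set, 106, most Hox regions held weaker candidates. The pooled candidate with the highest signal outside the IDR set in *lab* (103, rank 4208, q value 0.0189) overlapped the IDR peak of that gene. In *pb* it had a signal of 88.5 (rank 5283, q value 0.0563) and lay 18074 bp into the gene. In *Ubx* it had 75.3 (rank 6635, q value 0.140), 16280 bp downstream of the start site. Of the intervals, that between *Ubx* and *abd-A* had a candidate in an intron of lncRNA:bxd, a transcript of the *Ubx* regulatory region (95.8, rank 4684, q value 0.0304). It ranked 6314, 4458 and 3264 in the replicates.

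Beside the Sox core ACAAT, 8 other short sequences were searched on both strands in the windows of 201 bases. GAGAG, bound by GAGA factor, was in 7 of 19 Hox complex windows (36.8%, Wilson interval 19.1 to 59.0), against 20.9% of the others; with 200 bp to each side the order turned, to 36.8% against 43.1%. GCCAT, the core bound by the Polycomb recruiter Pho, was in 5 (26.3%, interval 11.8 to 48.8), against 25.2%. The homeodomain core TAATTA was in 4 (21.1%), against 19.7%. The insulator protein sequences CGATA, bound by BEAF-32, and AGGNGGC, bound by CTCF, were in 3 (15.8%) and 2 (10.5%), against 27.3% and 4.31%. Among the other peaks over 500 bp from a protein-coding start site these 2 shares were 20.1% and 4.29%. The Zelda word CAGGTAG was in 1 (5.26%), the strong peak between *Ubx* and *abd-A*, against 0.767% (31 windows); its interval, 0.935 to 24.6, rests on that 1 window. CACCTG and the DREF sequence TATCGATA were in 0, which allows up to 16.8% by the interval, against 4.70% and 3.46%; CGATA is contained in TATCGATA. For every sequence but CAGGTAG the Wilson interval contained the share of the other peaks. The share of CAGGTAG among the other peaks over 500 bp from a protein-coding start site was 0.998%, inside its interval.

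Genes that act with the Hox genes were also looked up. Of 16 cofactors, regulators and targets, 4 had an IDR summit in the span or within 500 bp of a start site, a share of 25%, close to the 23.2% of all protein-coding genes. *hth*, which encodes a homeodomain cofactor of Hox proteins, held 5, the highest of which (165) ranked 8984, 1019 and 1267 in the replicates. *cad*, a homeobox gene of the posterior embryo, held 1 (237), with ranks of 930, 2269 and 572. *dpp*, which encodes a signalling ligand that is under Hox control in the midgut, held 1 (220.1), with ranks of 1786, 1110 and 1200. *Dll*, a limb gene that is repressed by abdominal Hox proteins, had 1 at 64 bp upstream of its start site (157), with ranks of 876, 5135 and 4955. The cofactor *exd*, *tsh*, *tio*, *eve*, *hb*, *Kr*, *gt*, *kni*, *wg*, *salm*, *rpr* and *ems* had none.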

How the data were processed

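ChIP-seq was analysed from the peak lists that the authors deposited in dm6 for 3 biological replicates of 1 group. Per the deposited text lists, each replicate list was called on that replicate against a control alignment, the pooled list on all replicates, and the IDR set from these lists. Aligner and peak caller: not given in the sources used here. The signal values and the -log10 q values are those of the authors' caller, deposited on the scale of each list. The IDR set equals the regions of highest signal of the pooled list. Lists in dm3 were not used here.

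Genes came from Ensembl release 115 (BDGP6), sequence from the Release 6 assembly. Coordinates are 1-based. A summit placed a peak. A replicate's region of highest signal overlapping an IDR peak by at least 1 bp stood for it. Distances are negative upstream of a start site. Promoter took precedence over exon, exon over intron and intron over other gene classes. Named genes were fixed by rule: the 8 members, every IDR peak in the complexes, the listed complex genes and cofactors, the best candidates and 5 genes of like rank. Members and lists were chosen with earlier results of these data known. Shares were set beside those of all protein-coding genes, with no test over genes. Functions were tested on simulated data. Tools were matplotlib 3.10.9, scipy 1.17.1, pandas 2.3.3 and numpy 2.4.6 under Python 3.11.15.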

Additional observations from a re-analysis of the deposited data

How the results depend on the processing

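Of 57 alternative values, 38 stayed on the same side or close to the value reported. The 19 peaks in the complexes became 5 with the IDR set above its median rank (7.65 per Mb, against 15.3 in the rest of 3R) and 6 at a q of at most 0.001 (9.18, against 16.5), a setting added after seeing the data. Peaks among the top regions of both other replicates numbered 15 without replicate 1 (23.0 per Mb, against 23.5), 12 without replicate 2 (18.4, against 22.0) and 11 without replicate 3 (16.8, against 23.0). For the start sites, the count of 1 Hox gene became 0 with each stricter set (11.1% and 11.7% of all genes) and with a 200 bp window (12.2%). It was 1 without replicate 1 (13.9%), 0 without replicate 2 (14.0%), 0 without replicate 3 (14.7%) and 5 with nearest-TSS assignment (18.5%). With spans extended by 5 kb, 6 Hox genes held a peak, against 45.2% of all genes. Matches in all replicates were 5 with 0.5 times as many top regions and 18 with 2 times as many, against 36.5% and 92.1% of other peaks. The density ratio of candidates turned to 0.861 at a q of at most 0.05. With 50 bp to each side of the summit the shares were 21.1% for ACAAT, 15.8% for GAGAG, 5.26% for TAATTA and 5.26% for CGATA, against 31.1%, 9.65%, 11.2% and 15.2% of other peaks. With 200 bp GCCAT reached 63.2%, against 46.9%. The cause of the turned order was not tested. No peak has a q of 0.0001 or less, so that setting gave no value. No paired analysis was possible because there is 1 sample group; the ratios of the complexes to the rest were formed within each replicate. Depth is unknown, so what it limits cannot be given.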

Other observations

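Just outside the complexes, within 20 kb, lay 3 more IDR peaks, all at promoters of non-Hox genes. Beside *Ubx*, the peak at *CG10324* (3R 16647015 to 16647464) had a pooled signal of 206 and ranked 1603, 1318 and 1953 in replicates 1, 2 and 3. The peak at *modSP*, a gene of immune signalling, lay closest to *Ubx* (149) and ranked 2268, 2990 and 14838, low in replicate 3 only. Beside *Abd-B*, the peak at *CG18622* (219) ranked 2028, 1107 and 849.

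The *Abd-B* peak of highest signal was compared with the highest peak in the span of 1452 other protein-coding genes by the Euclidean distance of log10 ranks over the 3 libraries. The nearest genes were *dbo* (distance 0.0479), *ftz-f1* (0.0687), *Ctps* (0.0749), *CG12075* (0.0801) and *Vinc* (0.0824). With 3 libraries, this measures only a like strength in each.

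A word shared by peaks on either side of *abd-A* was noticed in the printed sequences and then counted. GCGACATCT occurred in 2 of the 19 Hox complex windows and in 8 of the other 4041 (0.198%), on either strand. It was chosen after the windows were seen, so its count supports nothing. Its first base lay 24 bp past the summit in the strong peak between *Ubx* and *abd-A* and 31 bp before it in the peak upstream of *abd-A*. Both windows follow, from the plus strand of dm6, with the word in capitals.
Between Ubx and abd-A, chr3R:16798791-16798991: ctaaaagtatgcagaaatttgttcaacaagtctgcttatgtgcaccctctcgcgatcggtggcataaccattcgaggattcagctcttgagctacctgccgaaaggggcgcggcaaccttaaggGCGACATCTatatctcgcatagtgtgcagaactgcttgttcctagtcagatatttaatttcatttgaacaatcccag
Upstream of abd-A, chr3R:16834748-16834948: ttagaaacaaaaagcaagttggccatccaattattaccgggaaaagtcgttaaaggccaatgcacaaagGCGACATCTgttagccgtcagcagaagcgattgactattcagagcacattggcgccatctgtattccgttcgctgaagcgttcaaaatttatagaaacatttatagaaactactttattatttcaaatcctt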
